A study of Mus musculus with 12 samples.

Results

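Mbp, Mag, Mog, Cnp, Mobp, Mal, Cldn11 and Ugt8a encode structural proteins, adhesion proteins and enzymes of central nervous system myelin, and Myrf encodes the transcription factor that switches them on. These 9 genes were taken by symbol from the raw count tables of neural stem and progenitor cell (NSPC) cultures, and all 9 of the 9 listed were present among 24525 genes. They were selected on their counts in these tables, in which earlier work had seen them high in 1 wild-type library. That excess, the wild-type against Ythdf2-/- contrast and the fold changes are therefore given as a description of the libraries and not as a test.

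NSPCs were grown as floating neurospheres from the forebrain of C57BL/6 mouse embryos at E14.5 and were used at passage 1, in serum-free medium with 20 ng/ml EGF and 10 ng/ml bFGF. There were 3 wild-type and 3 Ythdf2-/- input libraries, that is, fragmented mRNA put aside before the m6A antibody step. The Ythdf2-/- embryos lacked the stretch from upstream of the 5′UTR into the first intron of Ythdf2, which encodes a reader of m6A that promotes mRNA decay, after recombination of LoxP sites by a ubiquitous Cre, so the loss was not limited to a cell type. All 6 cultures shared the medium and the growth factors, and the 6 m6A-IP libraries were not analysed here.

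Myelin is the wrapped plasma membrane of the oligodendrocyte, a glial cell that arises from neural progenitors through a dividing precursor stage and a premyelinating stage. Sox10 and Olig2 act upstream of Myrf, and Myrf, released from the endoplasmic reticulum membrane by self-cleavage, binds near myelin genes in cells that have left the cell cycle. EGF and bFGF keep NSPCs dividing, and oligodendrocytes are known to form from such cultures mainly once these factors are withdrawn.

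The letters that Myrf is known to bind are shown for the members that carried them near a start site. The sequence CTGGCAC or CTGGTAC, searched on both strands, was present in the RefSeq promoter (GRCm38.p6, 250 bases before to 50 after the start) of 3 of the 7 members in the promoter table, Mag, Mog and Cnp, and in 7.1% of all 32851 promoters, or 8.1% of 27025 genes. Mbp and Myrf had no entry, and Mal, Cldn11, Mobp and Ugt8a had no match. The 30-base windows below are written 5′ to 3′ on the strand of the gene, with the matching letters in capitals.
Mag: gcaggcggcccCTGGCACccagggggcaga
Mog: agaaatgcccaGTACCAGgcagccactgct
Cnp: accgctgcttcCTGGCACtcaggtttccat
The Mag window (chr7:30914913-30914942, minus strand) has its match 68 bases upstream of 1 annotated start and 9 bases upstream of another. The Mog window (chr17:37023463-37023492, minus strand) holds the reverse complement of the motif, 83 bases upstream. The Cnp window (chr11:100574847-100574876, plus strand) has its match 81 bases upstream of the start in the promoter table, at position 100574939, which lies inside the outermost annotated start of the gene given below. The core letters of Sox factors, ACAAAG or ACAATG, were found in the promoters of Mag, Cnp and Mobp, 3 of the 7, against 31.7% of genes and 28.6% of all promoters. A match describes these letters only, and binding was not measured.

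Each library held 11029827 to 13185778 counted reads, and between 16327 and 16593 genes were detected. Ythdf2 itself had 840, 961 and 999 reads in wild type and 137, 198 and 138 in Ythdf2-/-, so no library went against its label. The progenitor genes Nes, Vim and Fabp7 were expressed in every library, but wild type replicate 3 stood apart from the other 5, at 103 on the first principal component against -33.4 to -3.86, with a mean Spearman correlation of 0.8997 with the others, against at least 0.962 for each other library. In that library Nes was at 264 CPM, against 724 to 1211 CPM elsewhere. The sum of reads on 4 Y-linked genes was 1111, 1638 and 1 in wild type and 0, 1 and 2147 in Ythdf2-/-, so wild type replicates 1 and 2 went with Ythdf2-/- replicate 3, and wild type replicate 3 with Ythdf2-/- replicates 1 and 2. The members' levels, their fold changes in the fit with genotype only and the medians of the oligodendrocyte lists are given with and without wild type replicate 3, and the part that its other differences play in them was not tested.

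Most of the reads on these genes came from wild type replicate 3. Its 9 members summed to 1780 CPM (reads scaled to library size with TMM factors), against 163 and 190.3 CPM in the other wild-type libraries and 267, 418 and 110 CPM in Ythdf2-/-. Without Cnp, which took most of these reads in the other cultures, the sum was 1005 CPM in wild type replicate 3, 29.6 and 33.2 CPM in wild type replicates 1 and 2, and 29.1, 27.1 and 10.9 CPM in Ythdf2-/-. Outside the 1 library the myelin genes other than Cnp were thus at a low level in both genotypes, and Ythdf2-/- replicate 3 was the lowest.

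**Figure D1:**
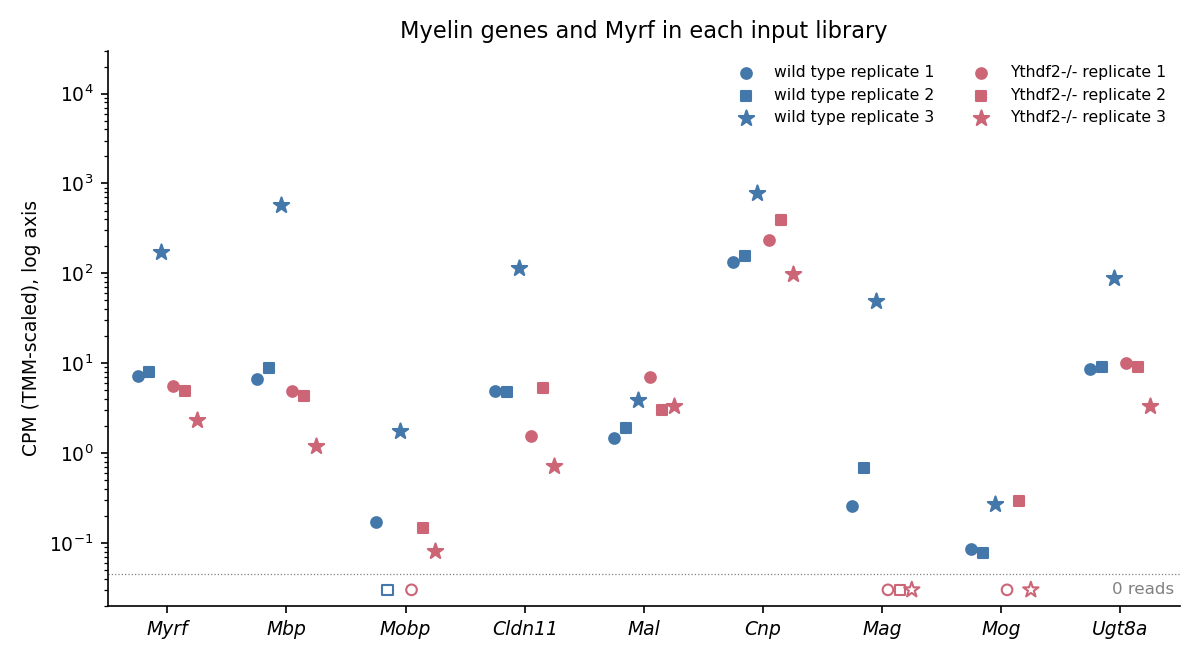
CPM of each gene (log axis) in the 6 input libraries, wild type in blue and Ythdf2-/- in red, with circles, squares and stars for replicates 1, 2 and 3 and open symbols for libraries with 0 reads. Wild type replicate 3 is the highest library for 7 of the 9 genes, with Mal and Mog as the exceptions.

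Myrf (chr19:10208271-10240777, minus strand, 26 merged exons) stands at the head of the programme. It had 85, 104 and 1907 reads in wild type and 66, 67 and 29 in Ythdf2-/-, or 7.27, 7.93 and 174 CPM against 5.62, 4.96 and 2.33 CPM. Every Ythdf2-/- library lay below every wild-type library, also when wild type replicate 3 was left out, and wild type replicate 3 was 21.97 times the highest other library. The mean was 63.1 ± 96.2 CPM in wild type and 4.30 ± 1.74 CPM in Ythdf2-/- (SD, n = 3 each), an SD larger than the wild-type mean.

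Mbp (chr18:82475091-82585637, plus strand) encodes the basic protein that holds the cytoplasmic faces of compact myelin together. It had 78, 116 and 6262 reads in wild type and 58, 58 and 15 in Ythdf2-/-, or 6.67, 8.84 and 572 CPM against 4.94, 4.29 and 1.21 CPM. The groups did not overlap, which then holds by necessity without wild type replicate 3 too. Wild type replicates 1 and 2 exceeded the highest Ythdf2-/- library by far less than wild type replicate 3 exceeded them, at 73.8 times their mean. The annotation joins 8 transcripts, among them the Golli forms, which neural cells make outside myelin, and the count cannot tell these from the classic forms. Of its exon sequence, 4033 of 6718 bases lie opposite Gm52337 on the other strand, and since the strand setting of the counting is not given in the sources used here, reads from the 2 genes cannot be told apart.

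Mobp (chr9:120149742-120181488, plus strand), another basic protein of compact myelin, had 2, 0 and 19 reads in wild type and 0, 2 and 1 in Ythdf2-/-. Its 1.74 CPM in wild type replicate 3 was 10.2 times the highest other library, and outside that library no more than 2 reads were counted. A difference between the genotypes was not detectable at this depth without wild type replicate 3, since counts of 0 to 2 lie under the 3 reads that a count of 0 allows. Such limits and all intervals cover counting error only.

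Cldn11 (chr3:31149920-31164326, plus strand) encodes the claudin of the tight junctions between myelin layers. It had 58, 63 and 1246 reads in wild type and 18, 71 and 9 in Ythdf2-/-, or 4.96, 4.803 and 114 CPM against 1.53, 5.25 and 0.7235 CPM. Wild type replicate 3 was 21.7 times the highest other library, and Ythdf2-/- replicate 2 lay above wild type replicates 1 and 2, so the genotypes overlapped.

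Mal (chr2:127633226-127656695, minus strand), a proteolipid of membrane rafts that myelinating glia share with epithelia, was the gene with the opposite order. It had 17, 25 and 43 reads in wild type and 83, 41 and 41 in Ythdf2-/-, or 1.45, 1.91 and 3.93 CPM against 7.07, 3.03 and 3.30 CPM. The Ythdf2-/- libraries all lay above wild type replicates 1 and 2, whereas wild type replicate 3 fell within the Ythdf2-/- range. At 0.556 times the highest other library, wild type replicate 3 did not stand out.

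Mag (chr7:30899175-30914922, minus strand) encodes the adhesion protein at the inner, axon-facing myelin membrane. It had 3, 9 and 545 reads in wild type and 0 in each of the 3 Ythdf2-/- libraries, and wild type replicate 3 was 72.6 times the highest other library. Against a floor of 3 reads in each Ythdf2-/- library, a mean of 0.240 CPM, the wild-type mean of 16.9 ± 28.5 CPM (SD, n = 3) was at least 70.6-fold higher. Without wild type replicate 3 the wild-type mean was 0.471 CPM, from 3 and 9 reads, close to that floor.

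Mog (chr17:37010740-37023398, minus strand) encodes the protein of the outermost myelin surface and is known to appear late in oligodendrocyte maturation. It had 1, 1 and 3 reads in wild type and 0, 4 and 0 in Ythdf2-/-. No library stood out: wild type replicate 3, with 545 reads on Mag and 6262 on Mbp, held 3 reads on Mog, with an exact 95% Poisson interval of 0.619 to 8.77 reads.

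Cnp (chr11:100574909-100591875, plus strand) encodes the phosphodiesterase of the cytoplasmic channels of myelin and is known to be expressed from the precursor stage on. It had 1555, 2060 and 8480 reads in wild type and 2787, 5281 and 1232 in Ythdf2-/-, or 133, 157 and 775 CPM against 237, 391 and 99.0 CPM. Wild type replicate 3 was 1.98 times the highest other library. Ythdf2-/- replicates 1 and 2 were above, and Ythdf2-/- replicate 3 below, wild type replicates 1 and 2. Cnp took 81.8%, 82.5% and 43.5% of the reads on the 9 members in wild type and 89.1%, 93.5% and 90.1% in Ythdf2-/-. There were 1.35 Cnp reads per Mbp read in wild type replicate 3, against 17.8 to 91.1 in the other libraries.

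Ugt8a (chr3:125865272-125938682, minus strand) encodes the enzyme that makes galactosylceramide, the main glycolipid of myelin. It had 102, 118 and 971 reads in wild type and 117, 124 and 41 in Ythdf2-/-, or 8.72, 8.997 and 88.7 CPM against 9.97, 9.17 and 3.30 CPM. Ythdf2-/- replicates 1 and 2 lay just above wild type replicates 1 and 2, and Ythdf2-/- replicate 3 lay below them.

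By CPM, wild type replicate 3 was the highest library for 7 of the 9 members and at least 4-fold above the highest other library for 6 of them. Of the 6 members that passed the expression filter, 5 were highest there, against 33.8% of the 13112 genes tested, and 4 met the 4-fold limit, against 0.923%. Those 6 are Mbp, Cnp, Myrf, Mal, Cldn11 and Ugt8a, while Mag, Mog and Mobp did not pass the filter, which asks for a minimum count in 3 libraries. Ythdf2-/- replicate 3 was the lowest library for 5 of the 6, against 16.9% of genes tested. All Ythdf2-/- libraries lay below all wild-type libraries for 2 of the 6, Mbp and Myrf, against 4.92% of genes tested, and for Mag among those that did not pass. Since these values chose the genes, the shares are not a result about them. In bulk RNA, fewer cells of a type and less RNA per cell cannot be told apart.

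Per exon length (RPKM, the same values per kilobase of merged exons), Cnp had the highest level both in wild type replicate 3 and in the other cultures. In wild type replicate 3, Cnp was at 289 RPKM, before Mbp at 85.2, Cldn11 at 60.8, Myrf at 31.1, Ugt8a at 23.5, Mag at 19.0, Mal at 1.41, Mobp at 0.390 and Mog at 0.161 RPKM. In the other 5 libraries Cnp was at a mean of 76.0 RPKM (range 36.98 to 145.9), but the next level was 2.13 RPKM for Ugt8a (0.874 to 2.64). Cldn11 had 1.85 RPKM, Mal 1.21, Myrf 1.004 and Mbp 0.773 RPKM in these 5 libraries, and the ranges of these 4 genes and Ugt8a overlapped between libraries. Within each of the 5 libraries, however, Ugt8a lay above Myrf and Myrf above Mbp, and Cldn11 also lay above Mbp. Myrf and Mbp were close in wild type replicate 2, at 1.42 and 1.32 RPKM. Mal and Cldn11 changed places with other genes from library to library. Mag, Mog and Mobp were each below 0.1 RPKM on average.

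**Figure D2:**
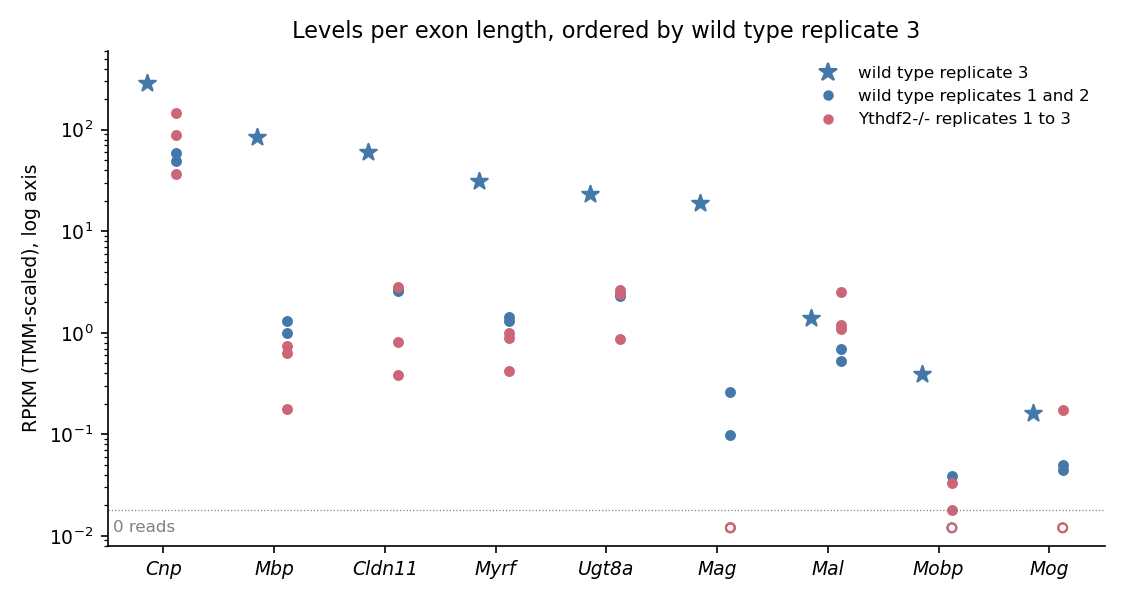
RPKM of each gene (log axis), with wild type replicate 3 as a blue star and the other libraries as dots, blue for wild type and red for Ythdf2-/-, and open dots for 0 reads. Cnp is the highest gene in every library, while the distance between the star and the dots runs from none for Mal and Mog to the widest for Mag and Mbp.

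Between the genotypes, the 6 members that passed the filter were fitted with all genes by edgeR's quasi-likelihood test (genotype only, Benjamini-Hochberg adjustment over 13112 genes). The log2 fold change, Ythdf2-/- over wild type, was -5.81 for Mbp (SE 1.99), -4.02 for Cldn11 (SE 1.53), -3.87 for Myrf (SE 1.39), -2.24 for Ugt8a (SE 1.04), -0.55 for Cnp (SE 0.811) and 0.88 for Mal (SE 0.527). No member passed an adjusted p of 0.05 (each 0.999), and neither did any other gene, 0.0% of those tested, Ythdf2 included (log2 fold change -2.66, SE 0.183, adjusted p 0.0547). At an unadjusted p under 0.05 there were 3 members, Mbp (0.0251), Myrf (0.0305) and Cldn11 (0.0376), all lower in Ythdf2-/-, against 1.82% of all genes. The median over the 6 was -3.06, against -0.01 over all genes. DESeq2 called none of the 2 members to which it gave a p, Cnp and Mal, and gave no p to the other 4. Limma-voom called none of the 6, with or without sample quality weights.

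Without wild type replicate 3 the differences of Mbp, Cldn11, Myrf and Ugt8a became smaller, that of Mal became larger and Cnp changed side. The log2 fold change was then -1.16 for Mbp (SE 0.534), -0.95 for Cldn11 (SE 0.731), -0.82 for Myrf (SE 0.376), -0.24 for Ugt8a (SE 0.452), 0.74 for Cnp (SE 0.524) and 1.40 for Mal (SE 0.482). The median over the 6 was -0.53, against 0.01 over all genes. By edgeR no member passed an adjusted p of 0.05, the smallest being 0.250 for Mal, whose unadjusted p of 0.0264 was the only 1 of the 6 under 0.05 (16.6% of genes were), and 2 of 13283 genes, or 0.0151%, were called. All 3 Ythdf2-/- libraries lay below wild type replicates 1 and 2 for Mbp and Myrf, against 20.0% of genes tested, and above them for Mal, against 18.9%.

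**Figure D3:**
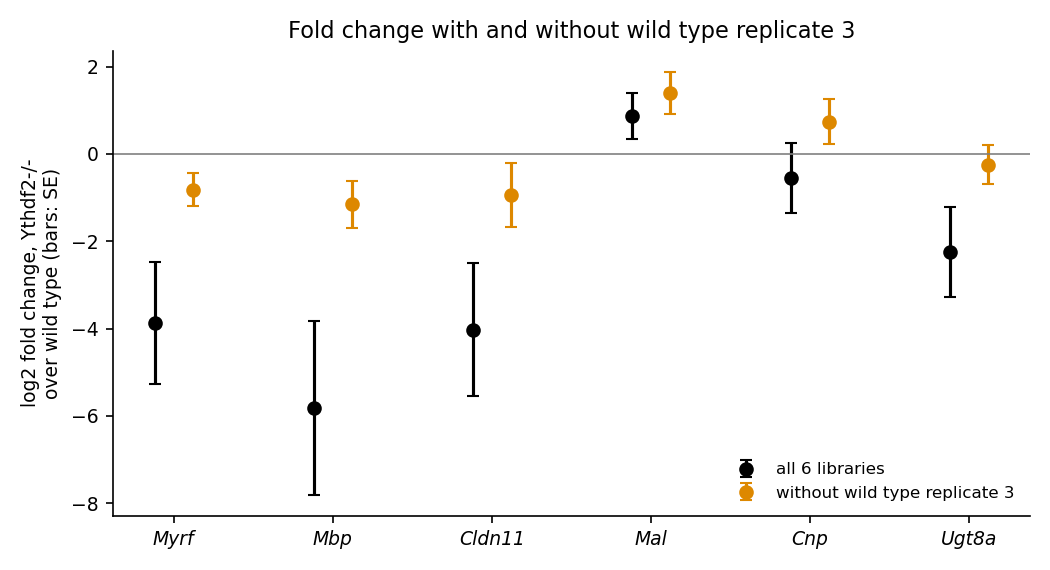
Log2 fold change of the 6 members that passed the filter, Ythdf2-/- over wild type, with standard errors, from all 6 libraries (black) and without wild type replicate 3 (orange). Mbp lies at -5.81 with that library and at -1.16 without it, and Cnp crosses from -0.55 to 0.74.

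In each of the classes given by the Y-linked reads, a genotype had only 1 library. Among the 3 libraries with such reads, Ythdf2-/- replicate 3 was below wild type replicates 1 and 2, and among the 3 without, Ythdf2-/- replicates 1 and 2 were below wild type replicate 3, for Mbp, Myrf, Cldn11, Ugt8a and Cnp, 5 of the 6 that passed the filter, against 15.4% of genes tested, and for Mag. Wild type replicate 3 is the only wild-type library in its class, so its distance from Ythdf2-/- cannot be told apart from what sets that library apart. Its excess also chose these genes, so the order in that class largely followed from the choice, and the share is not a result about them. The other class rests on Ythdf2-/- replicate 3. Ugt8a and Cnp are among the 5, although Ythdf2-/- replicates 1 and 2 exceeded wild type replicates 1 and 2 for both. With a term for the Y-linked reads, the log2 fold changes were -5.77 for Mbp, -4.39 for Cldn11, -3.69 for Myrf, -2.43 for Ugt8a, -0.93 for Cnp and 0.65 for Mal, and no member was called by edgeR (smallest adjusted p 0.157).

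The other oligodendrocyte genes did not all go the same way in wild type replicate 3. The 26 other myelin and mature oligodendrocyte proteins summed to 6298 CPM there, against 2845 to 3904 CPM elsewhere. Of these 26, 18 passed the filter, and wild type replicate 3 was the highest library for 7 of them, against 33.8% of genes tested. Among the 18, 2 were at least 4-fold above the highest other library. One was Nfasc, which encodes neurofascin, an adhesion protein of glia and of axons at the node, at 696 CPM in wild type replicate 3, against 34.2 to 63.8 CPM elsewhere. For 5 of the 18 the lowest library was in contrast wild type replicate 3, among them Trf, encoding transferrin, at 5.30 CPM against 60.4 to 166 CPM, and Car2, a carbonic anhydrase, at 14.3 CPM against 83.1 to 185 CPM. Opalin, a membrane protein of mature oligodendrocytes, had 16 reads in wild type replicate 3 and 1 to 7 elsewhere. By genotype 7 of the 18 were higher and 11 lower, with a median log2 fold change of -0.05 (-0.31 over 19 genes without wild type replicate 3). EdgeR called none, with 4 at an unadjusted p under 0.05, against 3.63% of all genes tested (2 without wild type replicate 3, against 16.6%). Limma-voom with sample quality weights called 2, against 1.15% of all genes, namely Gjc3, a gap junction protein, and Cd9, a tetraspanin.

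Genes of the premyelinating stage included some of the largest excesses among the lists. Of 8, 7 passed the filter and 4 met the 4-fold limit: Enpp6, a choline phosphodiesterase of newly formed oligodendrocytes, with 336 CPM against 0.161 to 4.04 CPM elsewhere, Bcas1 with 603 against 17.5 to 44.9 CPM, Gpr17, a receptor of this stage, with 690 against 14.3 to 142 CPM, and Lims2. Wild type replicate 3 was the highest library for 6 of the 7, against 33.8% of genes tested, whereas Tmem2 was lowest there. The 8 genes summed to 1931 CPM in that library, against 242 to 327 CPM elsewhere. By genotype 1 of the 7 was higher and 6 lower, with a median log2 fold change of -1.30, which was 0.13 without wild type replicate 3. EdgeR called none, and 2, Enpp6 and Bcas1, had an unadjusted p under 0.05, against 3.63% of all genes (2 without wild type replicate 3, against 16.6%). Among 8 lipid enzymes, all tested, Fa2h (8, 34 and 428 reads in wild type, 27, 20 and 7 in Ythdf2-/-) and Gal3st1 (10, 20 and 201 against 16, 28 and 3) met the limit, and both act on the same galactolipids as Ugt8a. Hmgcs1, of cholesterol synthesis, was at 2509 CPM in wild type replicate 3 and at 2056 to 3896 CPM elsewhere. Of the 8 enzymes, 3 were higher and 5 lower in Ythdf2-/-, with a median of -0.09 (3 and 5, with a median of -0.05, without wild type replicate 3), and by edgeR none had an unadjusted p under 0.05 (1 without wild type replicate 3).

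Of 12 lineage transcription factors and partners of Myrf, 9 passed the filter and 1 met the limit. Sox10, which acts upstream of Myrf, had 46, 27 and 1337 reads in wild type and 37, 39 and 7 in Ythdf2-/-. Olig1 (10722, 11457 and 5978 reads in wild type, 10764, 14705 and 15535 in Ythdf2-/-) and Olig2 (5729, 6211 and 3538 against 5526, 5628 and 6388) were lowest in wild type replicate 3, the opposite order. Nkx2-2 was at 17.3 CPM in wild type replicate 3 and 3.24 to 8.55 CPM elsewhere. The precursor marker Pdgfra was at 122 CPM, against 9.97 to 72.9 CPM, and 1 of 8 precursor genes met the limit. By genotype the 9 factors had a median log2 fold change of -0.13 (0.28 without wild type replicate 3), the 8 precursor genes -0.05 (0.30) and 8 inhibitors of oligodendrocyte differentiation -0.31 (0.68). EdgeR called none of these genes, with 2, 2 and 1 at an unadjusted p under 0.05, against 3.63% of all genes (3, 4 and 2 without wild type replicate 3, against 16.6%). DESeq2 and limma-voom called none of the oligodendrocyte genes above to which they gave a p, and with sample quality weights limma-voom called Sox8 and Sox5 besides the 2 named.

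**Figure D4:**
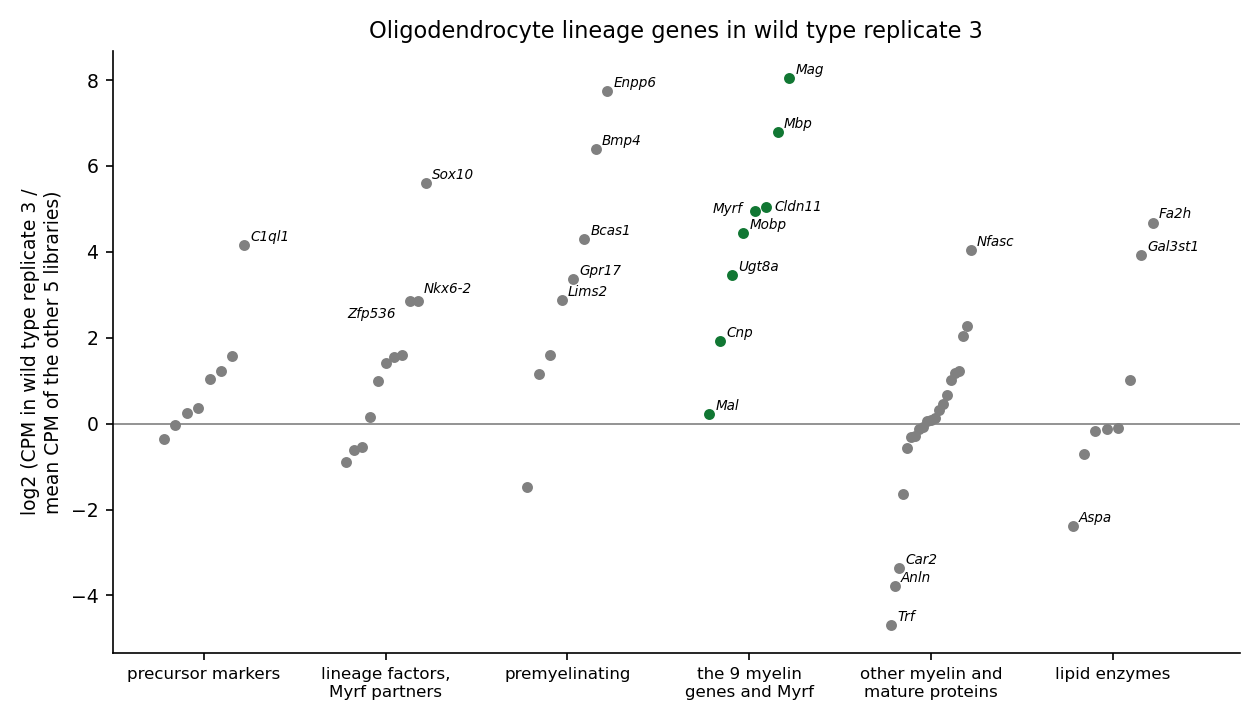
Log2 ratio of the CPM in wild type replicate 3 to the mean CPM of the other 5 libraries for genes of the oligodendrocyte lineage with at least 10 reads in a library and at least 1 in wild type replicate 3, by list, with the members in green. Mog had too few reads to be plotted, and the other members lie above 0, from Mal near 0 to Mag, whereas the other myelin and mature proteins run from Trf and Anln, far below 0, to Nfasc, with 1 gene of this list not shown.

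Markers of other cell types also stood at other levels in wild type replicate 3, and their part in the members' levels was not tested. The 10 astrocyte markers summed to 11816 CPM, against 3231 to 8464 CPM elsewhere, and Gfap, the astrocyte filament protein, had 5103, 8190 and 33286 reads in wild type and 1494, 1185 and 69 in Ythdf2-/-. The 12 neuronal markers summed to 2158 CPM, against 1302 to 1530.4 CPM. The library was the highest for 6 of the 11 that passed the filter, among them Dcx of young neurons, at 314 CPM against 8.35 to 13.1 CPM, and the lowest for 1, Gap43 of growing axons, at 55.7 CPM against 74.0 to 176 CPM. The 10 progenitor markers had their lowest sum there, 3806 CPM against 5003 to 6688 CPM, through Nes, Vim and Fabp7, the 3 for which this library was the lowest. It was the highest for the other 7, among them Sox2 at 550.1 CPM against 316 to 426 CPM and Sox9 at 345 CPM against 88.0 to 121 CPM. Markers of meninges and mesenchyme summed to 42.5 CPM against 13.2 to 25.8 CPM, of which Pdgfrb, a pericyte and mesenchymal receptor, made up 31.7 CPM, and the other 9 summed to 10.8 CPM against 13.1 to 23.5 CPM. Those of ependyma and choroid plexus summed to 38.8 CPM against 27.0 to 31.6 CPM, with Foxj1 at 28.1 CPM against 25.6 to 28.7 CPM, Aqp1 at 6.21 CPM against 0.256 to 1.37 CPM and Folr1 at 4.11 CPM against 0 to 0.915 CPM. The 12 microglial markers summed to 3.07 to 5.87 CPM in all libraries, with C1qa, C1qb, C1qc, Ptprc and Trem2 at 0 reads in each, and the 9 endothelial markers to 1.28 to 4.10 CPM, with Cldn5 at 0. The 6 genes of Schwann cells summed to 110.5 CPM in wild type replicate 3, against 85.3 to 119 CPM, and of the 4 that passed the filter it was the highest library for 2 and the lowest for 2. Egr2, a factor of Schwann cell myelination, was at 99.0 CPM there against 38.9 to 96.5 CPM, Pmp22, a myelin protein that other cells also express, at 4.48 CPM against 18.2 to 40.4 CPM, and Foxd3 of the neural crest had 0 reads in each library.

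The non-members whose log2 CPM profile over the 6 libraries lay closest to the mean profile of the 6 fitted members, out of 12808 genes, were Epha3, Lpar1, Synpo2, Col11a2 and Col9a1, with root mean square differences of 0.190, 0.277, 0.306, 0.329 and 0.335. Epha3, an ephrin receptor, had 14, 25 and 198 reads in wild type and 14, 21 and 7 in Ythdf2-/-. Lpar1, a lysophosphatidic acid receptor, had 12, 11 and 104 against 8, 15 and 4. Among the members themselves, Ugt8a lay at 0.161 from the mean profile that it is part of, Myrf at 0.498, Cnp at 0.801, Cldn11 at 0.826, Mbp at 1.24 and Mal, the farthest, at 1.55.

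In the second set of tables that the authors deposited, with expected counts, the same genes rested on few reads. Expected counts summed to between 1.97% and 2.40% of the raw counts, and those of the members ran from 0 to 10.25. Mbp was listed at 0, 3.26 and 16.14 FPKM in wild type and 3.15, 0.88 and 0.96 FPKM in Ythdf2-/-. Cnp was listed at 7, 1.65 and 4.87 FPKM in wild type and 12.79, 9.44 and 10.53 FPKM in Ythdf2-/-, so all its Ythdf2-/- libraries lay above the wild type, an order not seen in the raw counts. Mal and Ugt8a were listed at 0 in all 6 libraries. By mean FPKM, 4 members were lower and 3 higher in Ythdf2-/-, and 5 were highest in wild type replicate 3.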

How the data were processed

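Raw counts are whole numbers of reads per gene that the authors deposited without normalization, after alignment with TopHat to mm10. The submitters' processing notes also name Bowtie2 2.2.9, RSEM 1.2.15 and featureCounts, and the strand setting of the counting is not given in the sources used here. The authors also deposited expected counts, TPM and FPKM per library in tables with the columns of RSEM, which rest on far fewer reads and are given only as listed.

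Groups and replicate numbers came from the labels. The study used 3 biological replicates per genotype. The same-numbered libraries did not deviate together, so no block was used. From the raw counts, the quasi-likelihood test of edgeR 4.0.16 (R 4.3.3; robust glmQLFit, TMM factors) was applied to the genes kept by filterByExpr, over all 6 input libraries and with genotype only. DESeq2 1.42.0 and limma 3.58.1 (voom) were alternatives. CPM used TMM-scaled library sizes, log2 CPM for profiles a prior count of 2, and RPKM the merged exon length of RefSeq transcripts on GRCm38.p6. Exact Poisson intervals are at 95%, and the floor is 3 counts per library. The edgeR test was run on simulated data and recovered 95.5% of 200 genes changed 4-fold between simulated genotypes at a biological coefficient of variation of 0.33, out of 13199 genes, with 3.05% false calls. The simulation gave every gene the same coefficient of variation and held no library apart from the rest, unlike wild type replicate 3. It checks the procedure and does not give the power of the test in these libraries. Python 3.11.15, numpy 2.4.6, pandas 2.3.3, scipy 1.17.1 and matplotlib 3.10.9 were used for the rest.

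The members, the other gene lists and the tests were chosen with earlier results of these data known. The genes named were the members, Ythdf2, the 3 genes of highest mean CPM in each list, Sox10, Olig1, Olig2, Nkx2-2, Pdgfra and Gfap, and the 5 genes of closest profile. Opalin, Nfasc, Trf, Car2, Tmem2, Fa2h, Gal3st1, Lims2, Enpp6, Bcas1, Gpr17, Dcx, Sox2, Sox9, Gjc3, Cd9, Sox8, Sox5, Anln, Aqp1, Folr1, Foxd3 and the markers at 0 were named after their values were seen, where this rule did not already name them. Some list members are counted but not reported here by name.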

Additional observations from a re-analysis of the deposited data

How the results depend on the processing

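No member was called under any of the 15 alternatives to the edgeR fit, in which the smallest adjusted p of a member was 0.0609, for Mal with sample quality weights. DESeq2 gave no p to Mbp, Myrf, Cldn11 and Ugt8a and so could not call them. Cldn11 was not fitted with at least 10 counts in every library. The number of genes called, 0 in the fit given, was 31 with DESeq2, 1 with at least 10 counts in every library, 1 with RLE size factors, 151 with limma-voom and sample quality weights, 1 with no filter on low counts, 13 with a term for reads on Y-linked genes, and 0 to 2 when each library was left out in turn, with 2 without wild type replicate 3. The log2 fold change of Cnp turned to 0.45 with sample quality weights, which gave wild type replicate 3 a weight of 0.0957, and to 0.74 without wild type replicate 3 (range when each library was left out -1.06 to 0.74), while the other members kept their direction wherever they were fitted. The median of the members, -3.06, was -0.54 with sample quality weights and -3.55 to -0.53 when each library was left out. The median of the other myelin and mature proteins was -0.34 with no filter, which lets in genes of few reads, and -0.31 to 0.021 when each library was left out. The median of the premyelinating genes was 0.082 with sample quality weights and -1.80 to 0.13 (highest without wild type replicate 3), and that of the inhibitors of differentiation -0.63 to 0.68 (highest without wild type replicate 3). Apart from the part of wild type replicate 3 in these values, the cause was not tested.

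Replicate numbers are shared by the genotypes, but same-numbered libraries correlated at -0.248, -0.244 and -0.394 in their deviations from the genotype mean. Wild type replicate 3 weighs heavily in the wild-type deviations, so these values cannot tell whether same-numbered libraries shared a preparation. With the replicate block 0 genes and 0 members were called, the log2 fold change of Mbp was -2.45 and the median of the members -1.61. No library correlated best with the library of its own number in the other genotype. Depth limits Mag, Mog and Mobp outside wild type replicate 3, where each had under 10 reads.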
